A study of Mus musculus with 18 samples.

Results

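The ubiquitin-specific proteases (USPs) were taken as every gene whose symbol is *Usp* followed by a number, with an optional l or x. The RNA-seq table of E15.5 mouse cerebral cortex held 49 such genes among 55153. For 46 of them the Ribo-seq table also had counts in all libraries, while *Usp26*, *Usp44* and *Usp50* were blank there. *Usp26* had no RNA-seq read in any library. RNA-seq measures transcript abundance, and Ribo-seq measures the RNA fragments covered by translating ribosomes.

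The 18 libraries came from C57BL/6 cortex at embryonic day 15.5. In each assay 3 were labelled wild type (Ctrl), 3 *Fto*(f/f, Emx1-cre) (*F*-cKO) and 3 *Mettl3*(f/f, Emx1-cre) (*M*-cKO). The methods put the floxed lines on a mixed C57/BL6 and 129 background. Both knockouts carry Cre, which the wild-type label does not mention. Emx1-Cre acts in the cortical lineage, so vessels, microglia, blood and neurons that migrate in from the ganglionic eminences keep both genes. *Mettl3* encodes the catalytic subunit of the complex that writes m6A on mRNA, and *Fto* encodes a demethylase. The labels do not say whether the 3 libraries of a group came from separate litters, and the methods' wording for the Ribo-seq samples may mean that 3 samples shared 1 litter, so *P* values measure the spread between these samples, which may be technical in part.

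USPs are cysteine proteases that cut ubiquitin from proteins, and they form the largest deubiquitinase family. Ubiquitin chains send proteins to the proteasome, while single ubiquitins mark histones, the DNA clamp PCNA and receptors, so the USPs set how long their targets last and how they signal. Several are known from brain development, among them *Usp9x*, which acts in neural progenitors and is mutated in intellectual disability.

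The targeted genes checked the labels in part. *Fto* RNA-seq FPKM was 10.8, 11.2 and 8.37 in Ctrl and 3.26, 7.56 and 2.43 in *F*-cKO, where replicate 2 kept more than the others. Its Ribo-seq RPKM was 25.9, 22 and 17.6 in Ctrl and 3.91, 2.11 and 4.04 in *F*-cKO, with no overlap. *Mettl3* RNA-seq FPKM was higher in the libraries labelled *M*-cKO (8.61, 7.82 and 8.34) than in Ctrl (5.84, 6.43 and 5.07), while its Ribo-seq RPKM was lower (6.78, 6.02 and 6.4 against 9.16, 9.25 and 9.93). A gene-level count also covers exons that the deletion leaves, so the RNA-seq level of *Mettl3* goes against its label without deciding it. The paper reports by RT-PCR that the targeted exons were deleted in *M*-cKO cortex at an earlier stage. It also describes this pattern of *Mettl3* in the 2 assays and proposes that the knockout strategy might account for it. Cortical markers were present throughout. The summed RNA-seq FPKM of 8 radial glia markers lay between 762 and 851 in Ctrl, between 721 and 783 in *F*-cKO and between 560.4 and 602 in *M*-cKO, and all 8 were detected. The sum of 8 excitatory neuron markers lay between 769 and 803, between 875 and 897 and between 984 and 999 in the same order, and that of 7 ganglionic eminence markers between 86.4 and 87.3, between 82.5 and 114 and between 121 and 162. For 6 intermediate progenitor markers the sum lay between 157 and 231, between 267.5 and 324 and between 257 and 267. Here both knockouts lay above every Ctrl library. For 5 endothelial markers the sum lay between 46.8 and 50.7, between 34.6 and 39.9 and between 38.2 and 53.9. The part of these shifts in the USP results was not tested, and in bulk cortex fewer cells of a type and less RNA per cell cannot be told apart. Total counts per library were 18504094 to 22592406 in RNA-seq and 10973699 to 35853227 in Ribo-seq. Ribo-seq *F*-cKO replicate 2 was the shallowest library and also stood apart in 5 endothelial markers, whose summed RPKM was 83.3 there and between 5.07 and 8.38 in Ctrl.

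In Ctrl, most USPs were expressed at moderate levels, with a median FPKM of 6.17. FPKM is scaled by transcript length and library depth, so it allows levels of different genes to be compared. Of 49 members, 42 had a mean Ctrl FPKM of at least 1, and 15 of at least 10. *Usp22*, the histone H2B protease of the SAGA coactivator, was highest with FPKM 126, 120.0 and 124. *Usp5*, which takes apart free ubiquitin chains, had 35.8, 34.6 and 34.7, and *Usp7*, the protease of MDM2 and p53, had 29.2, 30.2 and 29.5. These 3 did not overlap with one another. At the lower end of the tested members stood *Usp51* (0.466, 0.578 and 0.582), *Usp50* (0.489, 0.456 and 0.172) and *Usp44* (0.199, 0.0351 and 0.0397). *Usp50* and *Usp44* rest on 8 to 38 and 3 to 18 reads per library, and neighbours in this order overlapped.

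All USP reads together made up 0.381% ± 0.00212 (SD, n = 3) of the Ctrl RNA-seq counts. The share was 0.417% ± 0.00387 in *F*-cKO, while *M*-cKO had 0.391% ± 0.00952. The *F*-cKO libraries (0.414% to 0.421%) lay above all Ctrl libraries (0.379% to 0.383%). In Ribo-seq the shares were 0.667% ± 0.0226, 0.621% ± 0.0968 and 0.622% ± 0.0237, and both knockouts overlapped Ctrl.

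Sequence before the transcription start was available from RefSeq (GRCm38.p6) for 37 members. The other 12 members are *Usp1*, *Usp5*, *Usp9x*, *Usp14*, *Usp18*, *Usp22*, *Usp33*, *Usp39*, *Usp42*, *Usp43*, *Usp44* and *Usp53*. In the 250 bases before the start the median GC content was 65.2%, against 55.2% for 17491 protein-coding genes, and the median number of CG pairs was 24 against 10. The GC box (GGGCGG, either strand) was found in 25 of 37 windows (67.6%), against 42.7% of protein-coding windows. TATAAA was found in 2 (5.41% against 12.4%) and the ETS motif CCGGAAG in 7 (18.9% against 9.12%). CACGTG was found in 3 (8.11% against 6.64%). The GC box stood in 7 of 9 windows of members called higher in the RNA-seq of *F*-cKO, in 4 of 7 of those called higher in *M*-cKO and in 1 of 3 of those called lower there. A letter match is not a binding site. The windows of 4 members described below are shown as examples of GC-rich starts (*Usp24*, *Usp34* and *Usp46*) and of one with fewer G and C bases (*Usp16*). Capitals mark the GC box, CCGGAAG and CACGTG on either strand, and neighbouring GC boxes overlap in *Usp34* and *Usp46*.
Usp24: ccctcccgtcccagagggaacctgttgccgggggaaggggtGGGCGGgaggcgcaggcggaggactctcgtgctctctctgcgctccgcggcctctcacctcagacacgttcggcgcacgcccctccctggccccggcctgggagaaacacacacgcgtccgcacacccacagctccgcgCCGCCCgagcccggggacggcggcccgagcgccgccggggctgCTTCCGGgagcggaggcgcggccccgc
Usp34: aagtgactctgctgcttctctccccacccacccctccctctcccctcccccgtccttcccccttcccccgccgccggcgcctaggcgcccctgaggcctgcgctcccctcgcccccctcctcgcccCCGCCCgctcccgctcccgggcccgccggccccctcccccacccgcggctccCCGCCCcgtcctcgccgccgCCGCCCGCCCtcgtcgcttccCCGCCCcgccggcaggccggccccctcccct
Usp46: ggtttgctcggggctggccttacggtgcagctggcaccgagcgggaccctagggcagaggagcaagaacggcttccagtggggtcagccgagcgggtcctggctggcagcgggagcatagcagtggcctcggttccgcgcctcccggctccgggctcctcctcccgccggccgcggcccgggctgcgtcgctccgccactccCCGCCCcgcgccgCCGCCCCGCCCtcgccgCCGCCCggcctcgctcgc
Usp16: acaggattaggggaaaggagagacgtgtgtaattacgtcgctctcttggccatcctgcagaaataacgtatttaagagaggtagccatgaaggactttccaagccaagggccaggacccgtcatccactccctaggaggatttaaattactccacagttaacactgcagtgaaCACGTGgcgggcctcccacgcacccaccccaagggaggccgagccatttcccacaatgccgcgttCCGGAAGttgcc
They lie at chr4:106315963-106316212 (*Usp24*, plus strand), chr11:23306645-23306894 (*Usp34*, plus strand), chr5:74068412-74068661 (*Usp46*, minus strand) and chr16:87454735-87454984 (*Usp16*, plus strand). Of the 37 member windows, 11 lay wholly inside and 14 partly inside a longer model of the member's own gene (*Usp34* wholly and *Usp24* almost wholly), and are not sequence before its outermost start. The GC box stood in 9, 10 and, of the 12 windows outside the model, 6, with median GC contents of 73.6%, 64.4% and 53.4%. The windows of all protein-coding genes were not split in this way, so the higher GC content of member windows was not compared at a like position. The 4 printed windows had GC contents of 76.8%, 82%, 77.6% and 54%. The GC box occurred in them 2, 5, 4 and 0 times. These examples do not stand for the direction of change. *Usp10* (46.4%, 0 GC boxes), *Usp11* (50.0%), *Usp49* (51.2%) and *Usp51* (52.8%) were called higher in *M*-cKO, where *Usp45* (65.2%, 2 GC boxes) was called lower.

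To ask whether loss of *Fto* went with changed USP transcripts, RNA-seq counts of *F*-cKO and Ctrl were compared. Of 47 members tested, 13 were higher and 1 was lower at an adjusted *P* below 0.05 (edgeR quasi-likelihood test, Benjamini-Hochberg adjustment over 16944 genes). Among all genes tested 11.5% were higher and 9.57% lower, against 27.7% and 2.13% of members. The libraries did not overlap in 24 members (51.1%), against 41.7% of all genes. The median log2 fold change was 0.12 for members and −0.01 for all genes. Transcript length moved with the calls. In the upper length tertile (above 5.44 kb) 22.5% of all genes were higher, against 3.13% in the lower tertile, and 31 of 47 members fell in the upper tertile, 10 of them called higher. The part of length in the USP result was not tested.

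The 3 very large scaffold-like proteases were all called higher in *F*-cKO, with 11.5% higher among all genes and 22.5% in the upper length tertile. None of them was called against Ctrl in *M*-cKO, and in the direct comparison of the knockouts *Usp9x* and *Usp34* were called lower in *M*-cKO while *Usp24* (−0.10 ± 0.06) was not. *Usp9x* (GRCm38.p6 chrX:13070982-13173328) is known to stabilise MCL1, ITCH and doublecortin. Its FPKM was 9.29, 8.42 and 8.12 in Ctrl and 15.4, 13.9 and 14 in *F*-cKO. Every *F*-cKO library stood above every Ctrl library, and the log2 fold change was 0.74 ± 0.07 (SE, adjusted *P* = 0.00293). *Usp34*, an enzyme of Wnt signalling that acts on axin, had 6.19, 5.43 and 6.33 in Ctrl and 8.68, 8.12 and 8.88 in *F*-cKO (0.51 ± 0.07, adjusted *P* = 0.00345). *Usp24* changed less, from 8.85, 8.41 and 8.43 to 9.61, 9.78 and 10.1 (0.19 ± 0.05, adjusted *P* = 0.0362). Neither overlapped with Ctrl. *Usp24* lost its call under 7 of 12 alternatives. RefSeq places *Ahsa2* over part of *Usp34*, and the strand setting of the counting is not given in the sources used here.

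Of 4 proteases of endosomes, Golgi and receptors, 3 were called higher, with 11.5% higher among all genes. None of the 4 was called against Ctrl in *M*-cKO, and the direct comparison of the knockouts called *Usp33*, *Usp8* and *Usp32* lower in *M*-cKO and *Usp20* in neither direction. *Usp33*, which acts on receptor recycling, had FPKM 5.14, 5.01 and 5.45 in Ctrl and 7.11, 7.01 and 7.16 in *F*-cKO, with tight replicates on both sides. The log2 fold change was 0.44 ± 0.06 (adjusted *P* = 0.00346). *Usp8*, the endosomal protease that protects EGFR and Smoothened, rose by 0.26 ± 0.08 and *Usp32* by 0.26 ± 0.07 on the log2 scale, and each lost its call under 5 of 12 alternatives. *Usp20* had −0.13 ± 0.08 and was not called.

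*Usp1*, which with WDR48 removes ubiquitin from PCNA and FANCD2, had FPKM 17.8, 16.5 and 15.5 in Ctrl and 22.2, 23.2 and 25.5 in *F*-cKO (log2 fold change 0.50 ± 0.08, adjusted *P* = 0.0041). The other DNA repair member called was *Usp47*, which acts on DNA polymerase beta (0.23 ± 0.06). *Usp37*, which stabilises cyclin A and whose gene overlaps *Cnot9* and *Plcd4*, rose by 0.28 ± 0.07. *Usp49*, an H2B protease, had FPKM 6.6, 5.97 and 5.95 in Ctrl and 7.45, 7.41 and 7.83 in *F*-cKO (0.28 ± 0.07, adjusted *P* = 0.0167). *Usp31* rose from 5.16, 4.89 and 5.06 to 6.65, 5.89 and 6.0 (0.28 ± 0.07, adjusted *P* = 0.0178). In *Usp1*, *Usp49* and *Usp31* the groups did not overlap. *Usp25* (0.34 ± 0.11) and *Usp42*, a protease of p53 (0.24 ± 0.07), complete the 13.

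*Usp43* moved the other way. Its FPKM was 4.88, 4.97 and 8.74 in Ctrl and 2.2, 2.11 and 1.61 in *F*-cKO, a log2 fold change of −1.66 ± 0.23 (adjusted *P* = 0.00345). Ctrl replicate 3 stood above the other Ctrl libraries, and without it the difference was −1.33 ± 0.14 (adjusted *P* = 0.00702). The 33 members not called ranged from −0.32 (*Usp2*) to 0.73 (*Usp44*, with few reads). The number called higher was 4 without Ctrl replicate 3, 8 without Ctrl replicate 2 and 6 without *F*-cKO replicate 2. *Usp1*, *Usp9x*, *Usp33*, *Usp34* and *Usp43* kept their calls under all 12 alternatives tried. Over the other role groups, which are small and share members, higher calls in *F*-cKO, against 11.5% of all genes, were 2 of 5 for DNA repair and replication, 1 of 2 for the cell cycle, 1 of 3 for WDR48-bound proteases and 1 of 8 for histones and chromatin. None was called in either direction among 3 of free ubiquitin chains and the proteasome, 3 paralogs *Usp4*, *Usp11* and *Usp15*, 3 of the spliceosome, RNA and nucleolus, 2 of mitochondrion and endoplasmic reticulum, 3 regarded as lacking isopeptidase activity, or the 1 tested germ line member.

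**Figure D1:**
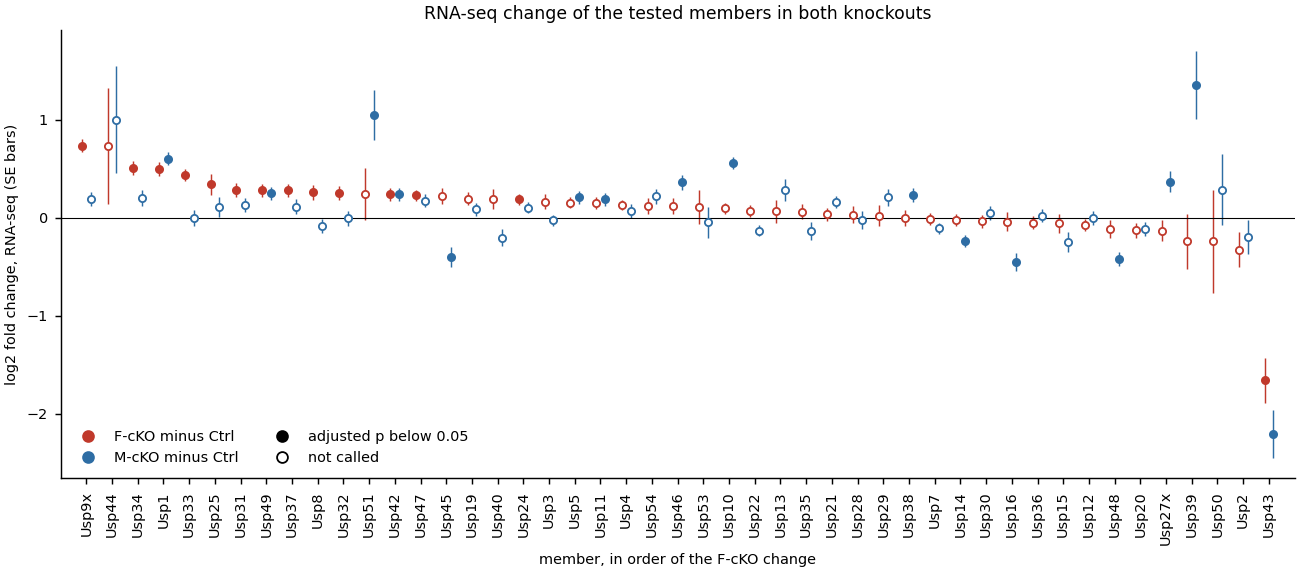
RNA-seq log2 fold change of the 47 tested members in *F*-cKO and *M*-cKO against Ctrl (points with SE bars, filled where the adjusted P is below 0.05), in order of the *F*-cKO change. *Usp9x* is highest among called members in *F*-cKO, *Usp39* and *Usp51* in *M*-cKO, and *Usp43* is lowest in both.

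In the libraries labelled *M*-cKO, 11 of 47 members were higher and 5 lower than in Ctrl (edgeR, adjusted over 16968 genes), against 15.5% and 14.1% of all genes. These were 23.4% and 10.6% of members. The libraries did not overlap in 23 members (48.9%), against 44.7% of all genes. The median log2 fold change was 0.10 for members and −0.01 for all genes.

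*Usp10*, which binds the stress granule protein G3BP1, had FPKM 11.4, 12 and 11.3 in Ctrl and 17.4, 16.4 and 17.7 in *M*-cKO. The groups did not overlap (log2 fold change 0.56 ± 0.06, adjusted *P* = 8.28e-05). *Usp39*, a spliceosome protein regarded as lacking protease activity, had 2.28, 1.16 and 1.29 in Ctrl and 6.63, 2.63 and 2.96 in *M*-cKO (1.36 ± 0.35, adjusted *P* = 0.0136). It rests on 53 to 368 reads per library, and without *M*-cKO replicate 1, the highest library, the difference was 0.82 ± 0.26 (adjusted *P* = 0.0405). Without Ctrl replicate 3 its adjusted *P* was 0.0516.

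*Usp51* and *Usp27x* are X-linked histone proteases that share the SAGA adaptors ATXN7L3 and ENY2 with *Usp22*. *Usp51* rose from FPKM 0.466, 0.578 and 0.582 in Ctrl to 1.38, 1.15 and 0.862 in *M*-cKO (1.05 ± 0.25, adjusted *P* = 0.00985), on 23 to 69 reads per library. *Usp27x* rose from 4.38, 3.98 and 4.32 to 6.12, 5.52 and 4.85 (0.37 ± 0.10, adjusted *P* = 0.0191). *Usp22* had −0.13 ± 0.06 and was not called. FPKM of *Xist*, the RNA that silences an X chromosome in females, lay between 29.4 and 50.2 in Ctrl, between 17 and 56.1 in *F*-cKO and between 0.00491 and 20.8 in *M*-cKO, so the mix of sexes differed among libraries, and its part in the X-linked results was not tested. Without *M*-cKO replicate 1, the library nearly without *Xist*, *Usp51* had 0.89 ± 0.29 (adjusted *P* = 0.0459) and *Usp27x* 0.29 ± 0.12 (adjusted *P* = 0.0893). *Usp11*, also on X and a paralog of *Usp4* and *Usp15*, rose by 0.19 ± 0.06 and had 0.14 ± 0.07 without that library (adjusted *P* = 0.195).

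Of the 3 WDR48-bound proteases, 2 were called higher, with 15.5% higher among all genes. *Usp1* reached FPKM 25.1, 26.4 and 24.6 (log2 fold change 0.60 ± 0.07, adjusted *P* = 0.000119). *Usp46*, known for glutamate receptor turnover, had 6.29, 5.67 and 5.18 in Ctrl and 7.68, 7.13 and 7.4 in *M*-cKO (0.36 ± 0.08, adjusted *P* = 0.00544). Neither overlapped with Ctrl, and *Usp12* (0.00 ± 0.07) was not called. *Usp42* had 11.1, 11.9 and 10.6 in Ctrl and 13.2, 13.6 and 13.1 in *M*-cKO (0.24 ± 0.06, adjusted *P* = 0.0165). The remaining higher members were *Usp49* (0.25 ± 0.07), *Usp38* (0.23 ± 0.07) and *Usp5* (0.21 ± 0.07), which lost their calls under 4, 6 and 6 of 12 alternatives. By role, the calls were 3 higher and 1 lower of 8 for histones and chromatin, 1 higher and 1 lower of 3 for free ubiquitin chains and the proteasome, and 1 higher and 1 lower of 5 for DNA repair and replication, with 15.5% higher and 14.1% lower among all genes. Higher calls alone were 2 of 3 for the spliceosome, RNA and nucleolus, 1 of 3 paralogs of the *Usp4* group and 1 of 3 regarded as inactive. None was called in either direction among 2 of the cell cycle, 2 of mitochondrion and endoplasmic reticulum, the 1 tested germ line member, or the large and the endosomal proteases above.

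Among the 5 lower members *Usp43* changed most, to FPKM 0.984, 1.39 and 1.67 (log2 fold change −2.21 ± 0.24, adjusted *P* = 0.000111), and without Ctrl replicate 3 it had −1.87 ± 0.18. *Usp16*, the histone H2A protease, fell from 4.98, 4.81 and 5.48 to 3.88, 4.1 and 3.26 (−0.45 ± 0.09, adjusted *P* = 0.00471). *Usp48* fell from 15.6, 17.3 and 18.2 to 12.9, 13.6 and 12 (−0.42 ± 0.07, adjusted *P* = 0.00176). In all 5 the *M*-cKO libraries lay below the Ctrl libraries. *Usp45*, which acts on the ERCC1-XPF repair nuclease, fell from 4.62, 4.57 and 4.8 to 3.58, 3.98 and 3.1 (−0.40 ± 0.10, adjusted *P* = 0.0114). *Usp14*, the protease bound to the proteasome, fell from 9.58, 8.56 and 9.28 to 7.77, 7.93 and 7.74 (−0.23 ± 0.06, adjusted *P* = 0.0173). *Usp16*, *Usp14* and *Usp45* overlap *Cct8*, *Thoc1* and *Tstd3* in RefSeq. *Usp1*, *Usp10*, *Usp16*, *Usp43*, *Usp45*, *Usp46*, *Usp48* and *Usp51* kept their calls under all 12 alternatives. The number of members called higher was 5 without Ctrl replicate 3, 7 without Ctrl replicate 2 and 6 without *M*-cKO replicate 1.

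Both knockouts were compared with the same Ctrl libraries. Set side by side, the log2 fold changes in *F*-cKO and *M*-cKO were 0.50 ± 0.08 and 0.60 ± 0.07 for *Usp1*, 0.24 ± 0.07 and 0.24 ± 0.06 for *Usp42*, 0.28 ± 0.07 and 0.25 ± 0.07 for *Usp49*, and −1.66 ± 0.23 and −2.21 ± 0.24 for *Usp43*, all called. Because the controls are shared, nothing is read from calls made in both, and the knockouts were also compared directly. In the libraries labelled *M*-cKO, 5 members were higher and 11 lower than in *F*-cKO (edgeR, adjusted over 16802 genes), against 13.1% and 14.3% of all genes. *Usp39* (log2 difference 1.58 ± 0.33), *Usp51* (0.79 ± 0.26), *Usp27x* (0.49 ± 0.12), *Usp10* (0.45 ± 0.06) and *Usp46* (0.23 ± 0.07) were higher. Their *F*-cKO FPKM was 12.4, 12.1 and 12.9 for *Usp10* and 1.53, 1.06 and 1.46 for *Usp39*. It was 4.39, 3.85 and 3.43 for *Usp27x* and 6.58, 6.14 and 6.07 for *Usp46*, and in these 4 no *F*-cKO library reached the *M*-cKO range. Without *F*-cKO replicate 2 the calls were 3 higher and 7 lower, and 2 were higher without *M*-cKO replicate 1. *Usp9x* (−0.55 ± 0.07), *Usp45* (−0.63 ± 0.11), *Usp33* (−0.45 ± 0.08) and *Usp8* (−0.36 ± 0.07) had the smallest adjusted *P* among the lower ones, from 0.000467 to 0.0063. *Usp9x* FPKM was 10.5, 9.97 and 9.25 in *M*-cKO against the *F*-cKO values above, and *Usp45* had 5.03, 5.61 and 5.74 in *F*-cKO. *Usp8* had 12.8, 14.8 and 14.5 in *F*-cKO and 11.1, 11.1 and 10.9 in *M*-cKO. None of these 3 overlapped between the knockouts. *Usp1* (0.09 ± 0.07) and *Usp43* (−0.56 ± 0.20) were not called.

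**Figure D2:**
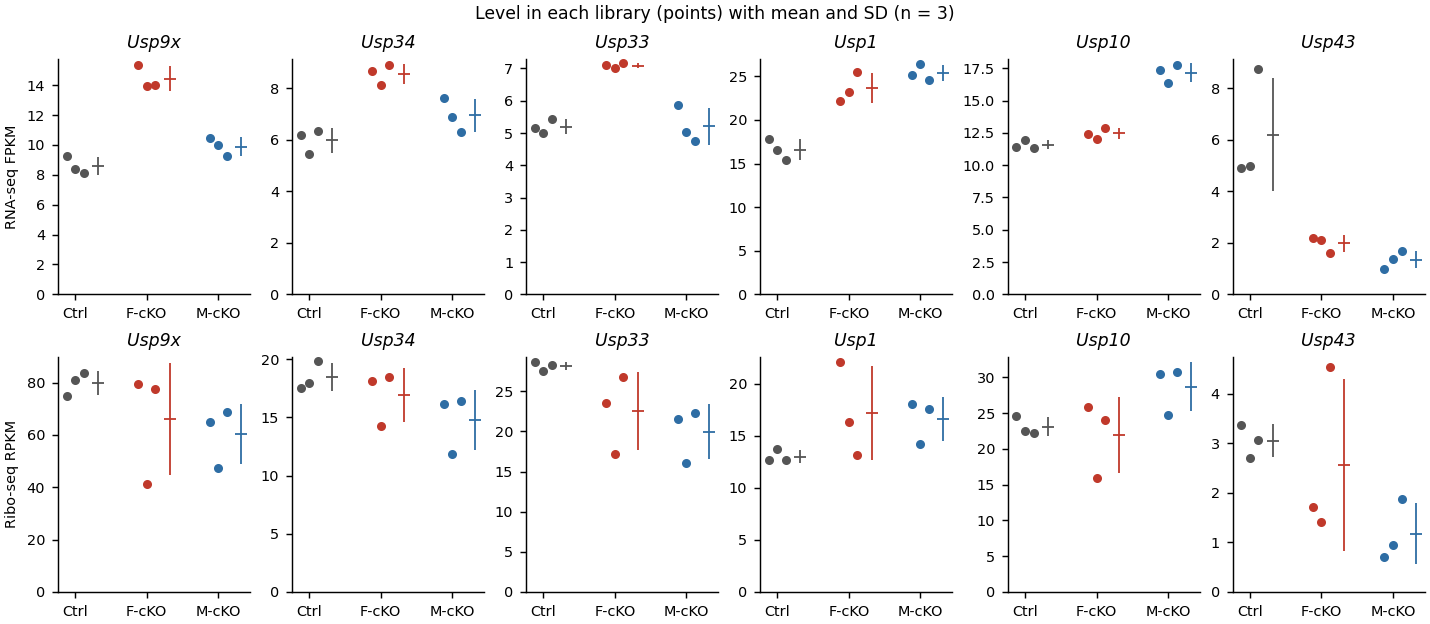
RNA-seq FPKM (top) and Ribo-seq RPKM (bottom) of 6 members in every library (points), with mean and SD (n = 3) and axes starting at 0. The RNA of *Usp9x*, *Usp34* and *Usp33* is above Ctrl in *F*-cKO, while none of their Ribo-seq values in *F*-cKO exceeds the highest Ctrl library.

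Ribo-seq was used to ask whether ribosome occupancy changed. In *F*-cKO no member was called, and no other gene either (0.0% higher and 0.0% lower of 14335 genes, edgeR), *Fto* included (log2 fold change −2.67 ± 0.25, adjusted *P* = 0.35). *Fto* was called lower by DESeq2 (−2.68), with all groups in one fit (−2.67) and without *F*-cKO replicate 2 (−2.48). DESeq2 called no member. At an unadjusted *P* below 0.05 there were 0 of 46 members, against 2.22% of all genes. Replicates differed widely, with a biological coefficient of variation of 0.379, against 0.103 in RNA-seq. Without *F*-cKO replicate 2 it was 0.204, and still no member was called. *Usp9x* RPKM was 74.9, 81 and 83.7 in Ctrl and 79.4, 41.3 and 77.6 in *F*-cKO, where all but replicate 2 lay within the Ctrl range (log2 fold change −0.25 ± 0.22). *Usp33* had 28.6, 27.6 and 28.3 against 23.5, 17.2 and 26.8 (−0.29 ± 0.14), below Ctrl in every library but not called.

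In the libraries labelled *M*-cKO, 5 of 46 members were lower and 0 higher in Ribo-seq (edgeR), against 7.5% lower and 7.13% higher of 14314 genes. At an unadjusted *P* below 0.05 there were 18 members in either direction, against 34.1% of all genes, and DESeq2 called 4 members higher and 7 lower. The share of all genes that DESeq2 called was not taken, so its counts have no background here. *Usp33* RPKM was 21.6, 16 and 22.3, all below Ctrl (log2 fold change −0.49 ± 0.11, adjusted *P* = 0.0313), while its RNA had 0.00 ± 0.08 and FPKM 5.86, 5.03 and 4.75. *Usp14* had 29.4, 32.4 and 36.9 in Ctrl and 24.5, 20.6 and 26.6 in *M*-cKO (−0.45 ± 0.12, adjusted *P* = 0.0413). *Usp43* had 3.37, 2.7 and 3.07 against 0.704, 0.954 and 1.88 (−1.35 ± 0.34, adjusted *P* = 0.0377). *Usp14* and *Usp43* were thus lower in both assays. *Usp22* had 330.5, 333 and 297 in Ctrl and 272, 215 and 240.3 in *M*-cKO (−0.39 ± 0.10, adjusted *P* = 0.0425). None of these overlapped with Ctrl.

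*Usp18*, the protease that removes the interferon-induced modifier ISG15, had Ribo-seq RPKM 1.58, 0.569 and 0.3 in Ctrl and 0.0435, 0.148 and 0.133 in *M*-cKO (log2 fold change −2.92 ± 0.76, adjusted *P* = 0.0422). The counts behind these were 131, 40 and 21 against 2, 5 and 7. Its Ctrl reads alone carried it past the count filter, which favours a lower call, and it is among the 5 lower members. Between the knockouts it was not tested. In RNA-seq it had 1 to 11 reads per library and was not tested. Without Ctrl replicate 1, the highest library, its change was −1.996 (adjusted *P* = 0.102), and it ranged from −3.28 to that value without 1 library, never called. None of the 5 Ribo-seq calls held under all 12 alternatives. Their number was 0 without any one of the 3 Ctrl libraries or without *M*-cKO replicate 1, and 1 without *M*-cKO replicate 2. *Usp1* (0.36 ± 0.10, adjusted *P* = 0.0518) and *Usp10* (0.32 ± 0.09, adjusted *P* = 0.0606), both higher in RNA, lay just outside the threshold. Without *M*-cKO replicate 2 both passed it, *Usp1* with 0.46 ± 0.10 (adjusted *P* = 0.0365) and *Usp10* with 0.41 ± 0.08 (adjusted *P* = 0.0335). Set directly against each other, the knockouts had no called gene in Ribo-seq (0.0% higher and 0.0% lower of 14262, edgeR), with 2 of 45 members at an unadjusted *P* below 0.05 against 8.09% of all genes, and DESeq2 called no member. The biological coefficient of variation was 0.413 in this edgeR fit. *Fto*, with RPKM 3.91, 2.11 and 4.04 in *F*-cKO and 26.1, 23.7 and 22.1 in *M*-cKO, was not called there either.

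**Figure D3:**
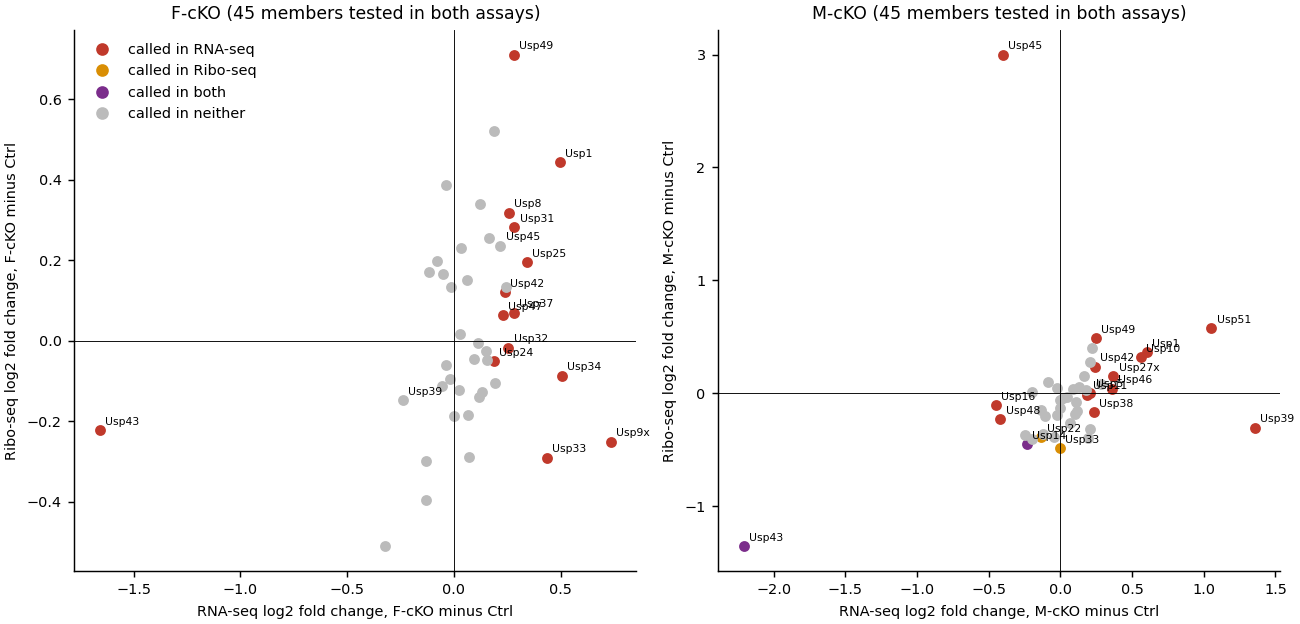
RNA-seq (x) against Ribo-seq (y) log2 fold change of the 45 members tested in both assays, for *F*-cKO (left) and *M*-cKO (right), coloured by the assay in which a member was called. *Usp43* and *Usp14* were called in both assays in *M*-cKO, and *Usp9x*, *Usp34* and *Usp33* combine called higher RNA with Ribo-seq values below 0 in *F*-cKO, which were not called.

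Translation efficiency (TE), the mean Ribo-seq RPKM over the mean RNA-seq FPKM, was described for members with an FPKM of at least 1. The median TE was 1.34 in Ctrl (42 members), with *F*-cKO at 1.26 and *M*-cKO at 1.15, against 0.855, 0.871 and 0.823 for protein-coding genes. Without replicate 2 the *F*-cKO median was 1.42, above the Ctrl value. In Ctrl, 29 of 42 members were above the protein-coding median. The 2 scales were set separately, so a TE of 1 has no absolute meaning. *Usp39* had the highest value in Ctrl (33.6), followed by *Usp9x* (9.27) and *Usp33* (5.41). The *Usp39* value rests on 125, 60 and 59 RNA-seq reads in Ctrl, against 3988, 3406 and 2971 in Ribo-seq. By replicate number, *Usp39* gave 24, 47.8 and 37.6, *Usp9x* 8.06, 9.61 and 10.3 and *Usp33* 5.56, 5.5 and 5.19, with no overlap. At the other end stood *Usp49* (0.0264), *Usp31* (0.309) and *Usp21*, an H2A protease (0.349). By replicate number *Usp31* gave 0.294, 0.376 and 0.262 and *Usp21* 0.348, 0.367 and 0.33, which overlapped. *Usp49* rests on 19 to 43 Ribo-seq reads per library, with RPKM of only 0.165, 0.143 and 0.181 in Ctrl, and the RefSeq model *Gm20517* covers its whole span.

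**Figure D4:**
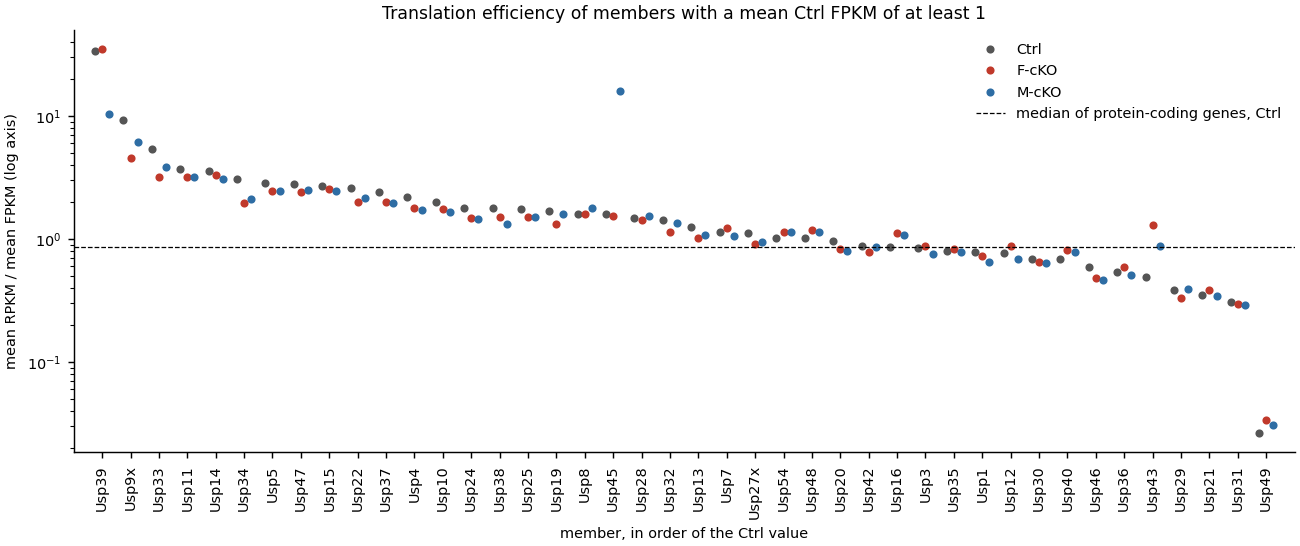
TE of the 42 members with a mean Ctrl FPKM of at least 1, by group (log axis, ratio of group means), in order of the Ctrl value. The dashed line is the Ctrl median of protein-coding genes (0.855), and *Usp45* in *M*-cKO (15.8) and *Usp43* in *F*-cKO (1.29) stand above their Ctrl values (1.58 and 0.492), with 1 high Ribo-seq library in each, and *Usp39* in *M*-cKO (10.4) below its own (33.6).

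Single libraries set some of these TE values, in a check chosen after the data were seen. *Usp45* in *M*-cKO, with RPKM 15.9, 143 and 10.1, had a TE of 15.8 with all libraries and 3.66 without Ribo-seq replicate 2. *Usp43* in *F*-cKO, with RPKM 1.71, 1.4 and 4.54, went from 1.29 to 0.789 without Ribo-seq replicate 3. *Usp49* in *F*-cKO went from 0.0341 to 0.0205 without Ribo-seq replicate 2. No other member with a mean FPKM of at least 1 in the group moved by over 1.5 times without 1 Ribo-seq or RNA-seq library of its group. Just under this limit, *Usp39* in *M*-cKO went from 10.45 to 15.2 without RNA-seq replicate 1.

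A change in TE was tested as the interaction of assay and genotype. By edgeR, no member was called in *F*-cKO (0.0% higher and 0.0% lower of 13225 genes) or in *M*-cKO (1.89% higher and 1.18% lower of 13208). DESeq2 called 1 member lower in *F*-cKO, and 1 higher and 3 lower in *M*-cKO, and its share over all genes was not taken. At an unadjusted *P* below 0.05 there were 6 of 45 members in *F*-cKO, against 9.29% of all genes, and 9 in *M*-cKO, against 21.5%. *Usp9x*, *Usp34* and *Usp33* had log2 TE changes of −1.02 ± 0.22, −0.63 ± 0.13 and −0.76 ± 0.15 in *F*-cKO (adjusted *P* = 0.372, 0.372 and 0.372). Without Ribo-seq *F*-cKO replicate 2 they were −0.78 ± 0.12, −0.54 ± 0.12 and −0.62 ± 0.11 (adjusted *P* = 0.0815, 0.127 and 0.0879). In *M*-cKO they had −0.52 ± 0.15, −0.45 ± 0.15 and −0.41 ± 0.14 (adjusted *P* = 0.0664, 0.109 and 0.12), and *Usp39* had −1.59 ± 0.41 (adjusted *P* = 0.0512). None of these passed the threshold in these fits. *Usp39* passed it in *M*-cKO with the replicate number as a block (log2 −1.58, adjusted *P* = 0.0236, edgeR). Between the knockouts no gene was called in TE (0.0% higher and 0.0% lower of 13162, edgeR, and no member by DESeq2), with 2 of 45 members at an unadjusted *P* below 0.05 against 4.11% of all genes.

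*Usp45* gave the largest positive Ribo-seq difference among members in *M*-cKO. Its Ribo-seq RPKM was 6.33, 7.54 and 8.25 in Ctrl. It was 9.79, 8.59 and 6.84 for *F*-cKO and 15.9, 143 and 10.1 for *M*-cKO, while its RNA was lower in *M*-cKO. All *M*-cKO libraries were above Ctrl, and replicate 2 stood far above the rest (1632, 10796 and 1189 counts). The log2 Ribo-seq change was 3.00 ± 0.97 (adjusted *P* = 0.0738) and the TE change 3.47 ± 1.01 (adjusted *P* = 0.0734), neither called. Without *M*-cKO replicate 2 the Ribo-seq change was 0.82 ± 0.20 (adjusted *P* = 0.0504) and the TE change 1.26 ± 0.22, which was called (adjusted *P* = 0.0157).

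Other genes of the pathway were taken from lists, and the counts that follow are edgeR calls in RNA-seq at an adjusted *P* below 0.05 over all genes. The background over all tested genes was 11.5% (higher) and 9.57% (lower) for *F*-cKO, and 15.5% and 14.1% for *M*-cKO. Of 35 tested genes of other deubiquitinase families, 2 were higher and 2 lower in *F*-cKO, and 3 higher and 9 lower in *M*-cKO, with medians of 0.01 and −0.06. In *M*-cKO the lower ones included *Uchl3* (−0.65 ± 0.11), the proteasome subunit *Psmd14* (−0.30 ± 0.06) and *Cops5* of the COP9 signalosome (−0.19 ± 0.06), and *Otud7a* was higher (0.73 ± 0.10). The neuronal *Uchl1* was lower in both knockouts (−0.36 ± 0.08 for *Fto* and −0.31 ± 0.08 for *Mettl3*). Of 3 tested genes with a USP fold and no numbered symbol, *Uspl1* was higher in *M*-cKO (0.29 ± 0.06).

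Among 13 tested cofactors of USPs, 4 were higher and 1 lower in *F*-cKO, and 4 higher and 2 lower in *M*-cKO (medians 0.17 and 0.08). *Wdr48*, the activator of *Usp1*, *Usp12* and *Usp46*, rose in *F*-cKO (0.23 ± 0.05). *G3bp1*, the partner of *Usp10*, rose in both knockouts (0.24 ± 0.06 for *Fto* and 0.24 ± 0.06 for *Mettl3*). In *M*-cKO the SAGA adaptor *Eny2* fell (−0.30 ± 0.07) and *Sart3*, which brings *Usp4* and *Usp15* to the spliceosome, rose (0.39 ± 0.07). *Dmwd*, a relative of *Wdr20*, had −0.22 ± 0.06 in *F*-cKO and 0.31 ± 0.06 in *M*-cKO, both called.

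Of 7 ubiquitin genes and activating enzymes, *Uba6* rose (0.41 ± 0.07) and *Uba7*, the activating enzyme of ISG15, fell (−1.80 ± 0.37) in *F*-cKO. *Uba7* also fell in *M*-cKO (−1.33 ± 0.38), and no other gene of the list was called in either knockout in RNA-seq. Between the knockouts only 6 of the 7 genes passed the count filter. A gene that passes it through Ctrl reads alone is favoured for a lower call. Because the Ctrl libraries are also shared, nothing is read from *Uba7* falling in both knockouts. Of 20 reported USP substrates, 10 were higher and 5 lower in *F*-cKO and 9 higher and 2 lower in *M*-cKO, against the 11.5%, 9.57%, 15.5% and 14.1% of all genes above (medians 0.27 and 0.17). In *F*-cKO the higher ones included the checkpoint mediator *Clspn* (0.90 ± 0.15), cyclin A2 (*Ccna2*, 0.78 ± 0.12), *Smad4* (0.45 ± 0.07) and *Pcna* (0.40 ± 0.07), while *Egfr* (−1.07 ± 0.26) and *Id3*, an inhibitor of bHLH factors (−0.59 ± 0.09), were lower. *Id3* was higher in *M*-cKO (0.43 ± 0.10), where its relative *Id2* was lower (−0.69 ± 0.07). These are transcript levels, and protein amounts were not measured.

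In the Ribo-seq of *F*-cKO no gene of these lists was called, as no gene was there. In the libraries labelled *M*-cKO, where 7.5% of all genes were lower and 7.13% higher, other deubiquitinase families had 4 lower and 0 higher in Ribo-seq, among them *Cops5* (−0.72 ± 0.09) and *Uchl3* (−0.86 ± 0.17), which were also lower in RNA. The cofactors had 2 higher and 2 lower, and here too the called genes *Dmwd* (0.45 ± 0.10) and *Sart3* (0.48 ± 0.09) were higher and *Eny2* (−0.43 ± 0.10) and *Stam2* (−0.54 ± 0.10) lower in both assays. Among the ubiquitin genes and activating enzymes, *Uba1* (−0.50 ± 0.11) and *Rps27a*, a ribosomal protein fused to ubiquitin (−0.61 ± 0.11), were lower, and among the substrates *Smo* was higher (0.99 ± 0.25).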

How the data were processed

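Members and gene lists were chosen with earlier results of these data known. The deposited RNA-seq counts and FPKM came from total RNA libraries that the authors aligned with HISAT2 2.0.5. The deposited Ribo-seq counts and RPKM came from RNase I footprints that the authors aligned with TopHat2 and counted with HTSeq. The coordinates are mm10, and the strand setting of the counting is not given in the sources used here. Count tables were tested whole with edgeR 4.0.16 in R 4.3.3 (quasi-likelihood test, TMM scaling, filterByExpr with a minimum count of 10 and a minimum total of 15, Benjamini-Hochberg adjustment over all genes tested, called below 0.05), per pair of groups on 6 libraries. TE was tested as the interaction of assay and genotype on 12 libraries. The SE of a log2 fold change was derived from the test, as its absolute value over the square root of the F statistic. FPKM and RPKM were used for levels alone.

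Alternatives were DESeq2 1.42.0, RLE scaling, no filter, all groups in one fit, a replicate block, protein-coding genes alone and leaving out each library. Values in every library are given for the up to 6 called members per direction with the smallest adjusted P and non-overlapping libraries, members called in more than 1 assay, the 3 highest and lowest by FPKM and by TE, and the up to 4 per direction that differed most clearly between the knockouts. The scripts were tested on simulated data. Start-site windows came from RefSeq. The authors' DESeq2 1.14.1 comparisons were not used.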

Additional observations from a re-analysis of the deposited data

Results flagged for a closer look

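The RNA-seq change differed between the 2 knockouts, by the direct edgeR test of *M*-cKO against *F*-cKO (Benjamini-Hochberg adjustment over all genes), in 16 members, 5 higher and 11 lower of 47, with 13.1% higher and 14.3% lower among all genes. On the log2 scale, *M*-cKO minus *F*-cKO, the higher members were *Usp39* (1.58), *Usp51* (0.79), *Usp27x* (0.49), *Usp10* (0.45) and *Usp46* (0.23). The lower members were *Usp45* (−0.63), *Usp9x* (−0.55), *Usp33* (−0.45), *Usp16* (−0.43), *Usp40* (−0.40), *Usp8* (−0.36), *Usp48* (−0.32), *Usp34* (−0.31), *Usp32* (−0.27), *Usp14* (−0.23) and *Usp22* (−0.21). *Usp40* and *Usp22* were called in neither comparison with Ctrl in RNA-seq. *Usp10*, *Usp32*, *Usp33*, *Usp39*, *Usp45*, *Usp8* and *Usp9x* kept the call under all 12 alternatives. In the long tertile of all genes 24.8% were lower in this comparison, and 9 of 31 members there were. The part of length was not tested.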

How the results depend on the processing

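None of the 51 called member results changed direction under any alternative. Differences that were not called did change sign in places, such as *Usp16* in RNA-seq of *F*-cKO (−0.04, and 0.02 without Ctrl replicate 3) and *Usp43* in Ribo-seq of *F*-cKO (−0.22, and 0.04 without *F*-cKO replicate 2). Over the called results, 284 of 306 values under alternatives other than leaving out a library kept the call and 22 lost it, and 193 of 306 values without 1 library kept it and 113 lost it. Leaving out 1 library, the members called higher ranged from 4 to 11 and lower stayed at 1 in RNA-seq of *F*-cKO, from 5 to 14 and 4 to 6 in *M*-cKO, and from 2 to 5 and 7 to 10 between the knockouts. In Ribo-seq of *M*-cKO they ranged from 0 to 2 higher and 0 to 5 lower, and in TE of *M*-cKO from 0 to 1 higher and 0 to 2 lower. In Ribo-seq of *M*-cKO, DESeq2 called 4 members higher and so did the fit on protein-coding genes alone, while all groups in one fit called 0 lower. In TE, DESeq2 called 1 member lower in *F*-cKO, and 1 higher and 3 lower in *M*-cKO, where RLE scaling and protein-coding genes alone each called 1 lower. The share of all genes called was taken for the main fits alone, so member counts under the alternatives have no background beside them. The causes were not tested. For *Fto* the RNA-seq change was −1.20 with DESeq2 and no longer called, and −1.84 to −0.92 without 1 library (adjusted P up to 0.0803). Its Ribo-seq change was −2.68 with DESeq2 and −2.67 with all groups in one fit, both called, and −2.81 to −2.48 without 1 library. For *Mettl3* the Ribo-seq change was −0.53 with all groups in one fit, not called, and −0.57 to −0.49 without 1 library. The median TE of members in *F*-cKO was 1.42 without replicate 2 and 1.16 to 1.42 over the replicates.

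Replicate numbers were not treated as pairs in the main fits. Same-numbered deviations correlated above 0.1 in 1 of 9 cases in RNA-seq, 6 of 9 in Ribo-seq and 4 of 9 between the assays. Between the assays, each number of Ctrl and of *M*-cKO correlated best with its own number and none of *F*-cKO did, which is a hint from the data and not part of the stated design. With a replicate block, 9 members were higher and 1 lower in RNA-seq of *F*-cKO, 9 and 5 in *M*-cKO and 4 and 10 between the knockouts. The share of all genes called with the block was not taken. In Ribo-seq of *M*-cKO the block gave 3 lower, and in TE of *M*-cKO 1 lower (*Usp39*). In Ribo-seq of *F*-cKO no member was called with all libraries (smallest adjusted P 0.73) or without replicate 2 (smallest adjusted P 0.875), and the cause was not tested. *Usp18*, *Usp44*, *Usp50*, *Usp51* and, in Ribo-seq, *Usp49* rest on few reads.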
